A study of Petunia x hybrida with 9 samples.

Results

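Petals (corollas) of line A4 were compared with those of the wild type in Petunia hybrida cv. Mitchell, whose flowers are white and scented. The comparison used 6 of the 9 libraries of the series, 3 wild-type and 3 labelled A4, taken by their sample titles. The titles call A4 an overexpressor of PhADT, a petunia arogenate dehydratase. The growth label of every library, wild type included, speaks of the overexpressor, and every library also carries the mutation-site label R353A, so neither label separates the groups. The sources used here do not give the transgene's promoter, whether A4 is a single transformant, or how many plants stand behind a library. Each RNA sample pooled 8 or more corollas cut at 20 h on day 2 after the flower opened, from greenhouse plants lit from 6 AM to 9 PM. Separate plants are not stated for the replicates, and the spread that the p-values measure may therefore be technical. The third genotype, A9, is named only where its level is set beside that of A4. It shares the wild-type control with A4, so both comparisons move together when the control moves.

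The shikimate pathway makes chorismate, from which plants build phenylalanine, tyrosine and tryptophan. Arogenate dehydratase makes the last step to phenylalanine. In petunia petals much phenylalanine goes into benzenoid and phenylpropanoid volatiles, which are made and released mainly in the evening and at night, and S-adenosylmethionine supplies methyl groups to several of them. Petal cells expand by loosening their walls, and the petal surface is covered with cutin and with wax built from very long chain lipids.

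Expression was deposited as FPKM, fragments scaled to locus length and library depth, for assembled loci that carry no petunia gene name. A name below is therefore that of the closest tomato protein, at a median identity of 84.25%. FPKM of all loci that share a tomato protein were summed, so that a gene split over contigs counted once, and petunia genes with the same closest protein are merged in that sum. Loci averaging under 1 FPKM in the 6 libraries were left out. This kept 53272 of 94534 loci, of which 47119 had a tomato match and gave 12894 proteins from 20443 assembled genes. Spacing between the lowest FPKM values put library depth at 30800000 to 32700000 fragments for the wild type and at 30600000 to 41600000 for A4. For a locus of median length, 44.5 to 60.9 fragments made up 1 FPKM. Between 1881 and 2078 loci were listed at 0 in a wild-type library and between 633 and 976 in an A4 library. Loci without a tomato match took 7.46% to 7.70% of all FPKM in a wild-type library and 9.66% to 9.78% in an A4 library. Of the 4 loci whose match is a viral genome polyprotein, all left out of the tests, the longest stood at 0.00352 to 0.0375 FPKM in wild type and at 31.0, 53.6 and 192.3 FPKM in A4. The part of such RNA in the results below was not tested.

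The dehydratase itself did not rise in the libraries labelled A4. Summed over the 4 proteins named prephenate dehydratase, the level was 2910, 4037 and 3441 FPKM in wild type and 2115, 2087 and 2403 FPKM in A4. Each A4 library lay below each wild-type library, and an exact permutation test (two-sided, 20 splits) gave its smallest possible p = 0.1. None of the 4 proteins rose and 3 fell. Without loci shorter than 300 bases the sums were 2511, 3247 and 2708 FPKM in wild type and 1778, 1679 and 1923 FPKM in A4. Directions below therefore rest on the label A4 alone.

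Expression in the libraries labelled A4 differed from wild type across all classes of function. Of the 12894 proteins, 2452 rose (19.0%) and 2661 fell (20.6%) at an adjusted p under 0.05. Without wild-type replicate 3, 1917 rose and 1709 fell. Changes of 2-fold or more were more often rises, with 745 proteins up (5.78%) and 439 down (3.4%), and 56 proteins rose and 19 fell at least 8-fold. The median log2 change over all proteins was -0.04. Proteins of low level rose more often and abundant proteins fell more often. Between 1 and 5 FPKM, 24.3% rose and 11.6% fell, whereas at 1000 FPKM or more 5.13% of 78 proteins rose and 50% fell. The tilt depended on the scaling: after quantile normalization, which gives all libraries the same distribution, 17.1% rose and 20.0% fell in the lowest class, and 11 rose and 11 fell in the highest. It stayed under median-ratio scaling, with 4 up and 39 down in the highest class. Falls of abundant proteins that were put through the alternatives are therefore given below with their value after quantile normalization where that ended the call. In corolla RNA fewer cells of a type and less RNA per cell cannot be told apart.

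**Figure D1:**
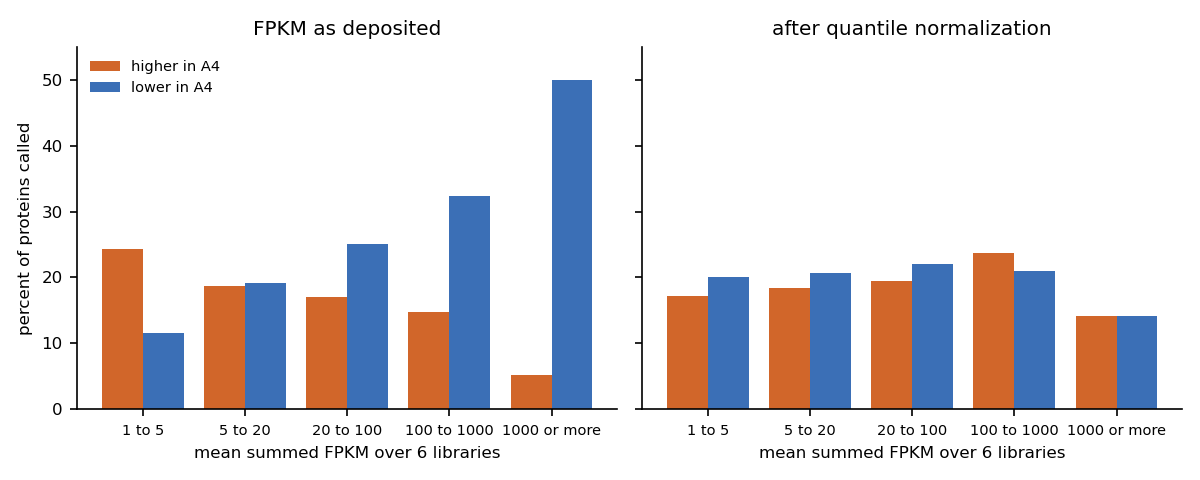
Percent of tomato proteins called higher (orange) or lower (blue) in A4 at an adjusted p under 0.05, by mean summed FPKM over the 6 libraries. With FPKM as deposited the share lower in A4 reaches 50% at 1000 FPKM or more; after quantile normalization the shares higher and lower are equal there, at 14.1% each.

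Proteins were grouped into 41 lists by words in their tomato names. The lists with the largest excess of rises over falls were mobile-element proteins, very long chain lipids and cuticle, cytosolic ribosomal proteins and defence proteins among lists of more than 50 proteins. Among those with more falls were photosystems, the shikimate pathway and general phenylpropanoid enzymes. In 22 of the 41 lists the summed FPKM of every A4 library lay below that of every wild-type library, and in 5 lists above. The summed FPKM of all loci was itself 799739 to 835669 in wild type and 735579 to 767368 in A4, a ratio of means of 0.913. Of all proteins, 29.5% lay below wild type without overlap and 24.7% above. The ratio of list totals was near that of the whole library for some of these lists, at 0.884 for the tryptophan branch, 0.887 for MADS-box factors and 0.908 for ethylene. After quantile normalization 14 lists lay below wild type and 10 above. The share of a list called below reads against the 19.0% of all proteins that rose and the 20.6% that fell.

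**Figure D2:**
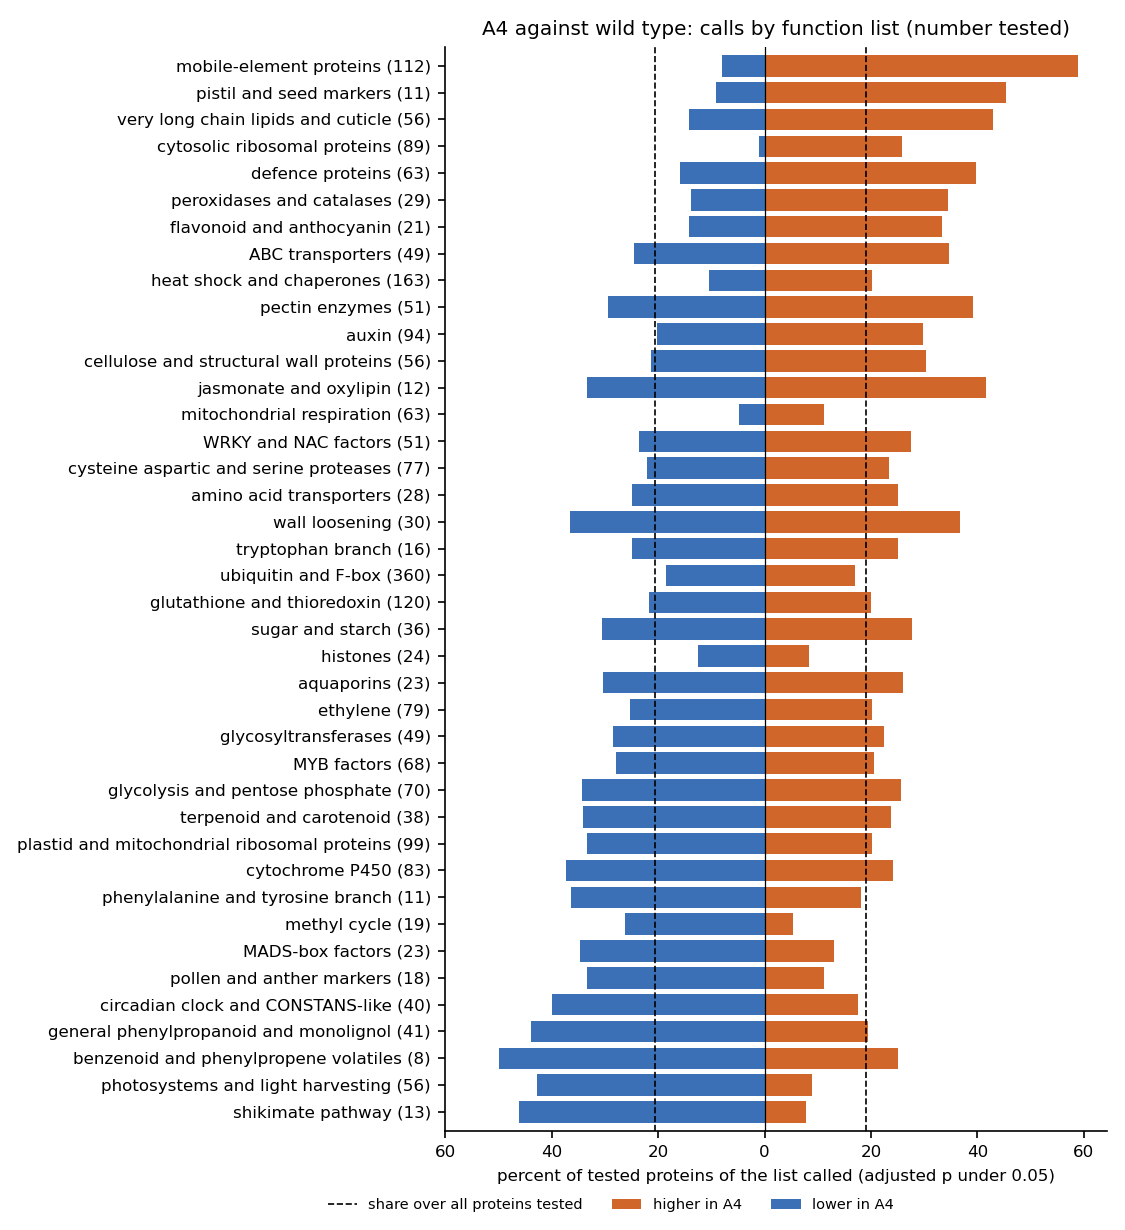
Percent of the tested proteins of each list (number in brackets, lists of at least 8) called higher (orange, right) or lower (blue, left) in A4. Dashed lines mark the share over all 12894 proteins, 19.0% higher and 20.6% lower. Mobile-element proteins reach 58.9% higher, benzenoid and phenylpropene volatile proteins (8 tested) 50% lower, and shikimate pathway proteins 46.2% lower.

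The largest rises took proteins from near 0 in wild type to well above it in A4. Proteins averaging under 1 FPKM in wild type, here and below, passed the filter on mean FPKM only through A4. The largest rises were also picked for large changes without overlap, so their start near 0 and their p-values are no separate support. The protein named after the rice locus Os01g0611000 (Solyc06g067910.2.1) stood at 0.623, 5.93 and 0.794 FPKM in wild type and 865, 1174 and 1503 FPKM in A4 (log2 change 8.73, SE 0.54, adjusted p = 7.75e-05). CONSTANS-LIKE 4 (Solyc12g005750.1.1), a zinc finger protein of a family tied to daylength, was at 0.0982, 3.43 and 0.197 FPKM in wild type and 231, 307 and 448 FPKM in A4 (log2 change 7.46, SE 0.54, adjusted p = 0.000139). In both, wild-type replicate 2 was the highest wild-type library, and all A4 libraries lay far above it. A9 stood between, at 179.6 ± 109 and 104 ± 72.6 FPKM (SD, n = 3). A major latex-like protein (Solyc05g046150.2.1) rose from 0.693, 1.78 and 0.426 to 66.7, 79.8 and 59.6 FPKM (log2 change 5.20, SE 0.25, adjusted p = 2.75e-05). A bZIP transcription factor (Solyc07g053450.2.1) was at 0.0227, 0.0214 and 0 FPKM in wild type and 22.3, 21.1 and 40.4 FPKM in A4 (log2 change 4.77, SE 0.23, adjusted p = 2.93e-05). A gibberellin-regulated protein (Solyc03g116060.2.1), of a family of small secreted peptides, rose from 0.0469, 0.363 and 0.0475 to 44.3, 39.3 and 54.7 FPKM (log2 change 5.35, SE 0.16, adjusted p = 4.03e-06). The more abundant gibberellin-regulated protein 2 (Solyc01g111080.2.1), chosen after its values were seen, went the other way. It stood at 2026, 637 and 1593 FPKM in wild type and 483, 98.0 and 134 FPKM in A4 (adjusted p = 0.0152 with FPKM as deposited). It was not among the proteins put through the alternatives, so its value after quantile normalization is not given. Os10g0422600 (Solyc08g067970.2.1) and Os06g0207500 (Solyc10g080550.1.1), also known only by rice locus names, rose by 4.87 and 3.99 on the log2 scale.

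The largest falls were of proteins with varied functions, some listed at 0 in A4. Those listed at 0 passed the filter on mean FPKM only through wild type. The F-box protein Solyc08g082510.1.1, of a family that picks targets for ubiquitin ligases, stood at 52.7, 61.6 and 54.9 FPKM in wild type and was listed at 0 in every A4 library (adjusted p = 2.32e-07). A9 held 5.34 ± 1.58 FPKM of it. F-box proteins Solyc00g042840.1.1 and Solyc06g068630.2.1 were likewise listed at 0 in A4, against 18.3 to 21.7 and 5.64 to 7.48 FPKM in wild type. A kelch F-box protein (Solyc06g066770.1.1) fell from 97.6, 68.5 and 86.1 to 7.10, 5.77 and 6.24 FPKM (log2 change -3.52, SE 0.14, adjusted p = 1.43e-05). The abscisic acid receptor PYL4 (Solyc10g085310.1.1) fell from 15.2, 14.1 and 14.7 to 1.05, 0.385 and 0.485 FPKM (log2 change -3.28, SE 0.15, adjusted p = 2.68e-05). Xanthoxin dehydrogenase (Solyc10g083180.1.1), an enzyme of abscisic acid synthesis, fell from 14.5, 22.5 and 22.99 to 1.06, 2.27 and 1.38 FPKM (log2 change -3.03, SE 0.23, adjusted p = 0.000156). A multidrug resistance protein mdtK (Solyc02g063260.2.1) fell by 3.69 and a wound induced protein (Solyc07g054790.1.1) by 4.05 on the log2 scale. Acireductone dioxygenase (Solyc09g082630.2.1), which recycles methionine from the by-product of ethylene synthesis, fell from 8.56, 17.5 and 11.9 to 0.393, 0.496 and 0.782 FPKM (log2 change -3.09, SE 0.24, adjusted p = 0.00017). The NBS-LRR protein Solyc04g015630.2.1, of the family of intracellular immune receptors, stood at 10.9, 10.01 and 11.1 FPKM in wild type and 0.218, 0.268 and 0.200 FPKM in A4 (log2 change -3.25, SE 0.08, adjusted p = 2.91e-06), while A9 held 11.8 ± 1.81 FPKM.

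**Figure D3:**
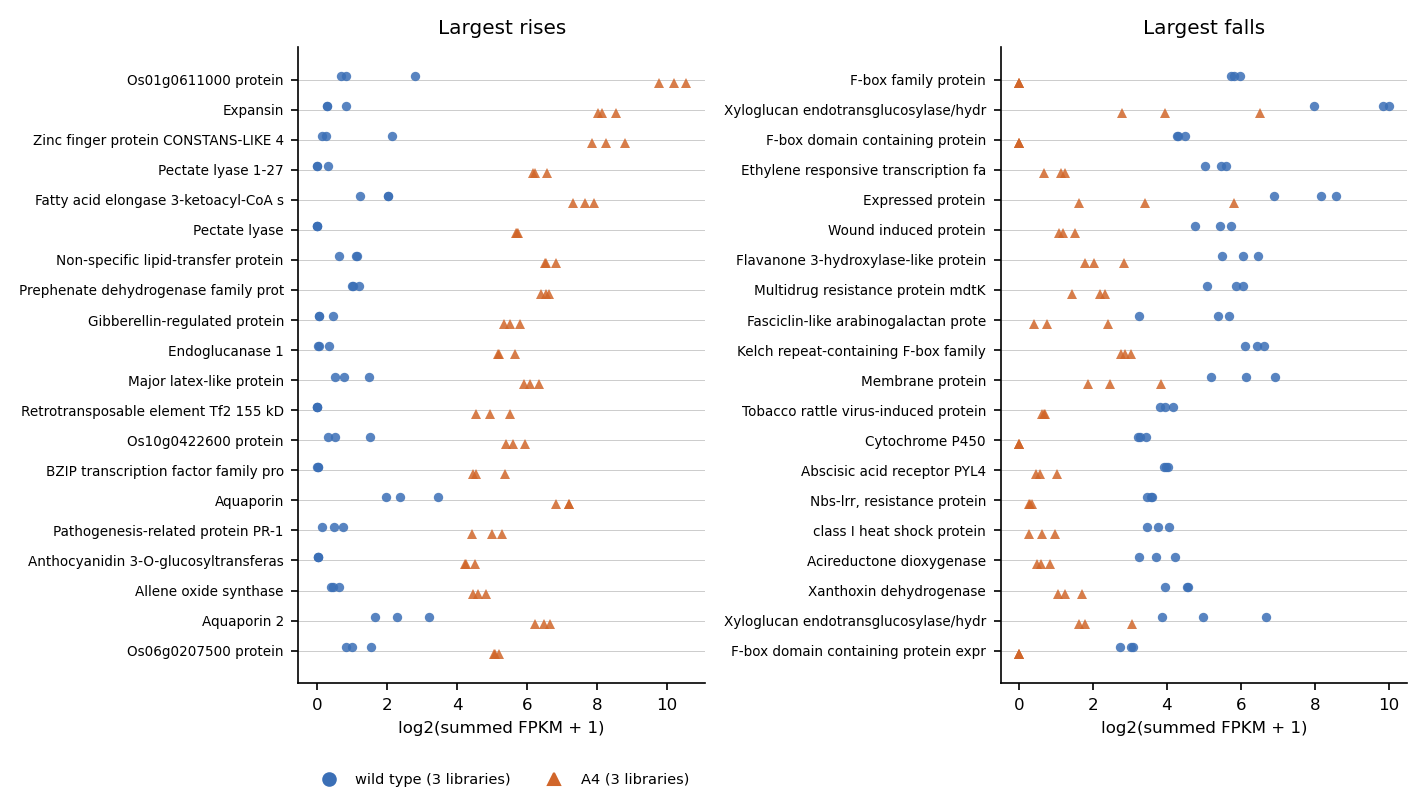
Summed FPKM of the 20 largest rises and 20 largest falls under the naming rule, as log2(FPKM + 1), for each wild-type library (blue circles) and each A4 library (orange triangles). Proteins were chosen for groups that do not overlap; the xyloglucan endotransglucosylase and expressed-protein rows show the widest spread within a group.

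Among the enzymes that make chorismate more fell than rose in A4. Of 13 shikimate pathway proteins, 6 fell (46.2%, against 20.6% of all proteins), 1 rose and 6 did not pass, with a median log2 change of -0.27. Their total was 13464 to 15209 FPKM in wild type and 10033 to 10221 FPKM in A4. Shikimate dehydrogenase (Solyc10g038080.1.1), which reduces dehydroshikimate, showed the strongest fall, from 984, 955 and 946 FPKM in wild type to 173, 228 and 203 FPKM in A4 (log2 change -2.26, SE 0.11, adjusted p = 3.09e-05). A9 was at 223 ± 12.5 FPKM. Another shikimate dehydrogenase protein (Solyc01g067750.2.1) fell from 279.5, 247 and 261 to 191, 153 and 165 FPKM (log2 change -0.63, SE 0.10, adjusted p = 0.00336). EPSP synthase (Solyc05g050980.2.1, 3-phosphoshikimate 1-carboxyvinyltransferase) fell from 2073, 2573 and 2185 to 1435, 1428 and 1385 FPKM (log2 change -0.68, SE 0.10, adjusted p = 0.00262; adjusted p = 0.0581 after quantile normalization). DAHP synthase (Solyc04g074480.2.1), the entry enzyme, stood at 6126, 7299.5 and 6538 FPKM in wild type and 4929, 4852 and 5017 FPKM in A4 (log2 change -0.43, SE 0.10, adjusted p = 0.0156). Chorismate synthase (Solyc04g049350.2.1), the last enzyme, was at 2490.2, 2383 and 2705 FPKM in wild type and 1995, 1961 and 1799 FPKM in A4 (log2 change -0.40, SE 0.09, adjusted p = 0.0146). After quantile normalization neither of these was called (adjusted p = 0.576 and 0.619), and 3 of the 13 proteins still fell, with a median log2 change of -0.08. Both calls were also lost without A4 replicate 3 (adjusted p = 0.0577 and 0.0607), and that of chorismate synthase without wild-type replicate 3 (0.0562). Shikimate kinase, which phosphorylates shikimate, changed in both directions, and a shikimate kinase-like protein did not pass. The abundant Solyc04g051860.2.1, chosen after its values were seen, fell from 279, 299.5 and 276 to 205, 232 and 215 FPKM (log2 change -0.39, SE 0.08, adjusted p = 0.00826). The rarer Solyc02g094420.2.1 rose from 3.34, 3.46 and 4.21 to 7.18, 8.12 and 10.2 FPKM (log2 change 1.02, SE 0.14, adjusted p = 0.00163).

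Of 11 proteins that lead from chorismate to phenylalanine and tyrosine, 4 fell (36.4%), 2 rose (18.2%) and 5 did not pass. Of all proteins 20.6% fell and 19.0% rose. Chorismate mutase 1 (Solyc02g088460.2.1), which commits chorismate to both amino acids, fell from 469.9, 542 and 545 to 335, 382 and 331 FPKM (log2 change -0.57, SE 0.10, adjusted p = 0.00421). The most abundant prephenate dehydratase (Solyc06g074530.1.1) fell from 2639, 3649 and 3105 to 1919, 1894 and 2189 FPKM (log2 change -0.64, SE 0.14, adjusted p = 0.0106), and Solyc11g066890.1.1 from 249, 368 and 313 to 179, 176 and 197 FPKM (log2 change -0.73, SE 0.14, adjusted p = 0.00721). The fall of Solyc11g072520.1.1, from 17.5 to 20.9 FPKM in wild type to 14.2 to 15.3 FPKM in A4, was no longer called when wild-type replicate 1, wild-type replicate 3 or A4 replicate 3 was left out (adjusted p = 0.0536, 0.0617 and 0.0537). The fourth, Solyc02g080620.2.1, stood at 2.29 to 2.64 FPKM in wild type and 1.92 to 2.41 FPKM in A4 (adjusted p = 0.566). Both proteins that rose were prephenate dehydrogenases, which serve tyrosine. One (Solyc09g011870.1.1, identity 58% at best) stood at 1.01, 1.28 and 1.05 FPKM in wild type and 92.95, 83.9 and 97.1 FPKM in A4 (log2 change 5.45, SE 0.09, adjusted p = 3.85e-07), and at 6.86 ± 4.02 FPKM in A9. The other (Solyc07g007590.1.1), with 2 of its 4 loci called higher and 1 lower, rose from 5.21, 6.67 and 6.19 to 50.2, 41.7 and 56.99 FPKM (log2 change 2.84, SE 0.13, adjusted p = 2.75e-05). The third prephenate dehydrogenase (Solyc06g050630.2.1, adjusted p = 0.936) and the tyrosine aminotransferases Solyc07g053720.2.1 (0.149) and Solyc10g007110.2.1 (0.86), named after their values were seen, did not pass. On the tryptophan side 4 of 16 proteins rose and 4 fell (25% each, against 19.0% and 20.6% of all proteins). Its main enzyme by level, indole-3-glycerol phosphate synthase (Solyc03g111850.2.1), fell from 106, 118 and 112 to 65.7, 73.4 and 70.9 FPKM (log2 change -0.67, SE 0.08, adjusted p = 0.000823).

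**Figure D4:**
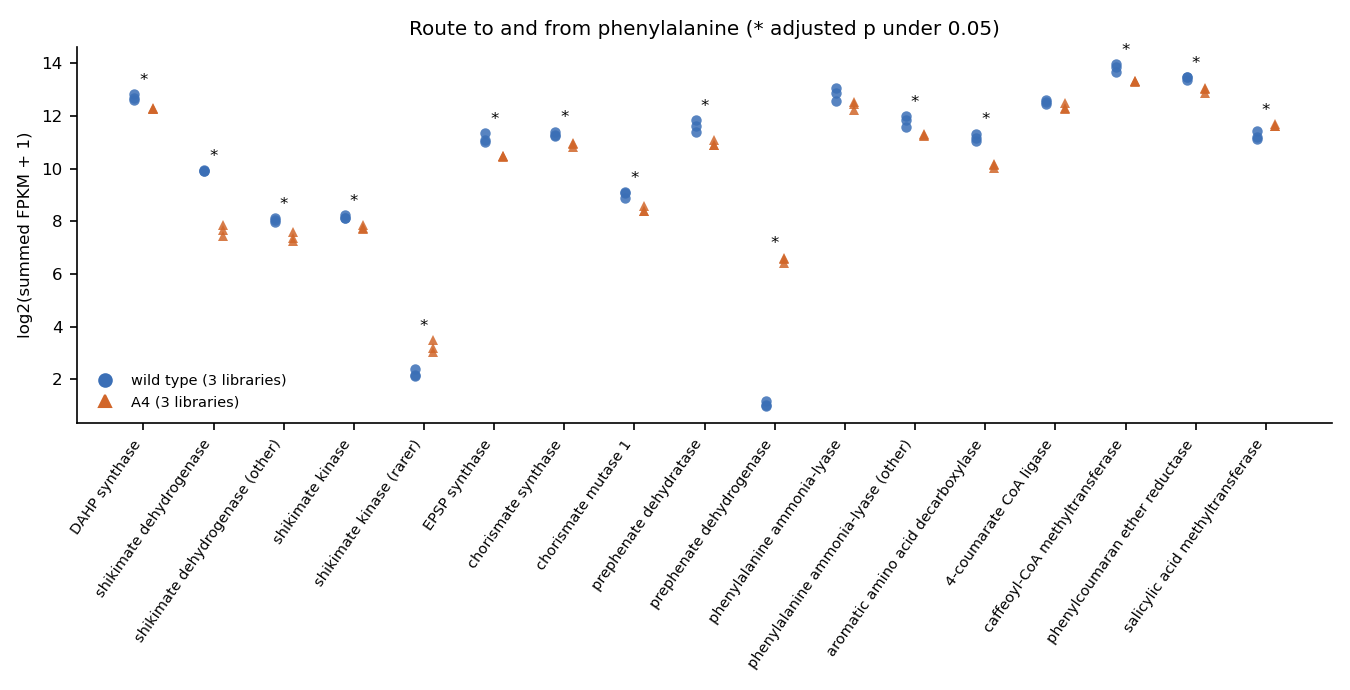
Summed FPKM as log2(FPKM + 1) of enzymes in the order of the route from DAHP synthase to chorismate, phenylalanine and its products, for each wild-type library (blue circles) and each A4 library (orange triangles); stars mark an adjusted p under 0.05. Prephenate dehydrogenase, the rarer shikimate kinase and salicylic acid methyltransferase are starred with A4 above wild type, and the other starred enzymes with A4 below.

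Enzymes of the general phenylpropanoid and monolignol list, downstream of phenylalanine, fell more often than they rose. Of 41 general phenylpropanoid and monolignol proteins, 18 fell (43.9%) and 8 rose (19.5%), with a median log2 change of -0.36 and totals of 51392 to 61990 FPKM in wild type and 38753 to 43929 FPKM in A4. The most abundant, caffeoyl-CoA O-methyltransferase Solyc02g093270.2.1, which methylates monolignol precursors, stood at 13021, 15948 and 14686 FPKM in wild type and 10101, 10209 and 9862 FPKM in A4 (log2 change -0.53, SE 0.11, adjusted p = 0.0105). Caffeoyl-CoA 3-O-methyltransferase Solyc01g107910.2.1 stood at 8137, 9042 and 8495 and 5215, 5996 and 5688 FPKM (log2 change -0.60, SE 0.10, adjusted p = 0.00421). Neither was called after quantile normalization (adjusted p = 0.167 and 0.238), when 12 of the 41 fell and 8 rose, and the first was not called without A4 replicate 3 (0.0567). Phenylalanine ammonia-lyase, the entry enzyme, had 4 proteins, of which 2 fell and 2 did not pass. Of these, chosen after their values were seen, Solyc05g056170.2.1 stood at 5964, 8515 and 7378 FPKM in wild type and 4747, 5835 and 5554 FPKM in A4 (adjusted p = 0.0676, and 0.0299 without wild-type replicate 1), and Solyc09g007920.2.1 fell from 3086, 4040.1 and 3654 to 2419, 2453 and 2543 FPKM (log2 change -0.53, SE 0.12, adjusted p = 0.0115). Among the rises were rare proteins. A hydroxycinnamoyl transferase (Solyc09g092270.2.1) rose from 0.343, 0.393 and 0.318 to 6.62, 6.42 and 6.75 FPKM (log2 change 2.49, SE 0.08, adjusted p = 7.03e-06). A cinnamoyl-CoA reductase-like protein (Solyc03g097170.2.1) rose from 0.819, 0.618 and 0.574 to 5.21, 5.92 and 7.79 FPKM (log2 change 2.12, SE 0.14, adjusted p = 0.000114).

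In the short list of benzenoid and phenylpropene volatile proteins 4 of 8 fell (50%) and 2 rose (25%), against 20.6% and 19.0% of all proteins. After quantile normalization 2 fell and 1 rose. Aromatic amino acid decarboxylase, a family whose petunia member makes phenylacetaldehyde from phenylalanine, fell in both abundant proteins. Solyc03g044120.1.1 stood at 2124, 2259 and 2564 FPKM in wild type and 1127, 1153 and 1038 FPKM in A4 (log2 change -1.06, SE 0.10, adjusted p = 0.000407), with 2 of its 4 loci called lower and 2 higher. Solyc03g045020.2.1 stood at 720.4, 691 and 769.8 and 372, 374 and 297 FPKM (log2 change -1.07, SE 0.11, adjusted p = 0.000552). A phenylcoumaran benzylic ether reductase (Solyc04g080550.2.1), of the family that also holds phenylpropene synthases, fell from 10495, 11433 and 11358 to 8189, 8584 and 7507 FPKM (log2 change -0.46, SE 0.10, adjusted p = 0.0134). That call was lost after quantile normalization (adjusted p = 0.65) and without A4 replicate 3 (0.0723). Salicylic acid carboxyl methyltransferase (Solyc09g091550.2.1), of the family that makes methyl benzoate and methyl salicylate, rose from 2204, 2331 and 2708 to 3279, 3128 and 3133 FPKM (log2 change 0.40, SE 0.10, adjusted p = 0.021). Leaving out wild-type replicate 1, wild-type replicate 2 or A4 replicate 3 ended that call (adjusted p = 0.0668, 0.0591 and 0.0638).

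In the methyl cycle, which makes and recycles S-adenosylmethionine, 5 of 19 proteins fell (26.3%) and 1 rose (5.26%). Of all proteins 20.6% fell and 19.0% rose. After quantile normalization none of the 19 fell and 5 rose. Methionine synthase (Solyc10g081510.1.1) stood at 8634, 9187 and 9435 FPKM in wild type and 6020.5, 6735 and 6119 FPKM in A4 (log2 change -0.53, SE 0.10, adjusted p = 0.00617; adjusted p = 0.423 after quantile normalization). S-adenosylmethionine synthase (Solyc09g008280.1.1) stood at 10004, 12873 and 11588 and 8841, 10396 and 10591 FPKM (adjusted p = 0.269).

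Among flavonoid and anthocyanin proteins, which make petal pigments and their colourless relatives, 7 of 21 rose (33.3%) and 3 fell (14.3%). Of all proteins 19.0% rose and 20.6% fell. An anthocyanidin 3-O-glucosyltransferase (Solyc09g059170.1.1), which attaches sugar to anthocyanidins, was at 0.0199, 0.0187 and 0.0198 FPKM in wild type and 17.6, 18.3 and 21.9 FPKM in A4 (log2 change 4.31, SE 0.10, adjusted p = 2.1e-06). Flavanone 3-hydroxylase (Solyc02g083860.2.1) rose from 11.7, 9.91 and 12.1 to 52.6, 50.5 and 61.4 FPKM (log2 change 2.19, SE 0.11, adjusted p = 3.09e-05). Chalcone synthase (Solyc09g091510.2.1), the entry enzyme, rose from 1.01, 0.688 and 0.890 to 7.32, 5.71 and 7.36 FPKM (log2 change 2.06, SE 0.12, adjusted p = 6.4e-05). A flavanone 3-hydroxylase-like protein (Solyc03g080190.2.1) fell from 88.1, 43.7 and 66.1 to 6.19, 3.04 and 2.44 FPKM (log2 change -3.79, SE 0.33, adjusted p = 0.000293).

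Wall-loosening proteins changed in both directions. Of 30, 11 rose (36.7%) and 11 fell (36.7%), and their total was 3138 to 5981 FPKM in wild type and 1124 to 2908 FPKM in A4. Of the 8 proteins named expansin or expansin B1, which let wall polymers slide, 7 rose and 1 did not pass. Of 2 expansin-like proteins 1 fell and 1 did not pass, and both endo-1,4-beta-glucanases fell. Expansin Solyc04g081870.2.1 stood at 0.221, 0.776 and 0.227 FPKM in wild type and 259.6, 282 and 369.5 FPKM in A4 (log2 change 7.76, SE 0.19, adjusted p = 2.1e-06), and at 10.4 ± 2.69 FPKM in A9. Endoglucanase 1, which cuts glucan, rose in 2 of its 3 proteins and fell in 1. Solyc09g075360.2.1 rose from 0.0195, 0.258 and 0.0440 to 34.7, 35.8 and 49.5 FPKM (log2 change 5.20, SE 0.16, adjusted p = 4.46e-06). Solyc08g082250.2.1 rose from 0.741, 1.32 and 1.71 to 26.9, 31.2 and 45.8 FPKM (log2 change 3.97, SE 0.23, adjusted p = 5.54e-05). Xyloglucan endotransglucosylase/hydrolases, which cut and rejoin xyloglucan, made up 7 of the 11 falls and differed widely within each group. Xyloglucan endotransglucosylase/hydrolase 8 (Solyc09g092520.2.1) stood at 915, 253 and 1019.8 FPKM in wild type and 90.8, 5.85 and 14.5 FPKM in A4 (log2 change -4.86, SE 0.97, adjusted p = 0.00767), with wild-type replicate 2 and A4 replicate 1 nearest the other group. Xyloglucan endotransglucosylase/hydrolase 2 (Solyc02g091920.2.1) stood at 877, 539.8 and 844 and 236, 42.6 and 96.6 FPKM (log2 change -2.88, SE 0.56, adjusted p = 0.00707). The most abundant, xyloglucan endotransglucosylase/hydrolase 9 (Solyc03g093080.2.1), stood at 1346, 1299 and 2570.2 FPKM in wild type and 1214, 46.5 and 393 FPKM in A4. Its groups did not overlap, but the spread within A4 left it uncalled (adjusted p = 0.099, and 0.0181 without A4 replicate 1). Its relative xyloglucan endotransglucosylase/hydrolase 1 (Solyc02g080160.2.1) rose from 4.84, 3.62 and 3.34 to 28.3, 26.8 and 31.6 FPKM (log2 change 2.61, SE 0.13, adjusted p = 3.09e-05). The same 2 libraries stood nearest the other group more widely: among the 1184 proteins changed at least 2-fold, wild-type replicate 2 was the wild-type library nearest A4 in 44.8% and A4 replicate 1 the A4 library nearest wild type in 53.7%.

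Pectin enzymes changed in both directions. Of 51, 20 rose (39.2%) and 15 fell (29.4%), 15 of the rises being at least 2-fold. Pectate lyases, which cleave pectin, gave the strongest rises, with 6 of 9 up and 2 down. Pectate lyase 1-27 Solyc09g061890.2.1 stood at 0, 0.255 and 0 FPKM in wild type and 73.4, 71.3 and 94.1 FPKM in A4 (log2 change 6.21, SE 0.14, adjusted p = 2.1e-06), and Solyc09g091430.2.1 at 0, 0.197 and 0.0413 and 13.1, 13.04 and 17.1 FPKM (log2 change 3.83, SE 0.13, adjusted p = 8.73e-06). Pectate lyase Solyc06g071840.1.1 was listed at 0 in wild type and at 50.96, 51.8 and 52.6 FPKM in A4 (adjusted p = 1.34e-07). It rests on a locus of 262 bases, and the depth estimate subtracted 275 to 290 bases from the length of a locus, so its FPKM is uncertain. Pectinesterases, which remove methyl groups from pectin, went both ways: Solyc07g064180.2.1 rose from 2.32, 1.95 and 2.37 to 36.1, 38.5 and 51.04 FPKM (log2 change 3.72, SE 0.14, adjusted p = 1.13e-05), while the most abundant, Solyc06g034370.1.1, fell from 292, 255 and 249 to 148, 166 and 185 FPKM (log2 change -0.67, SE 0.11, adjusted p = 0.00332). Among cellulose and structural wall proteins 17 of 56 rose (30.4%) and 12 fell (21.4%), against 19.0% and 20.6% of all proteins. Cellulose synthase Solyc03g005450.2.1 fell from 14.6, 13.1 and 15.01 to 3.81, 3.44 and 3.58 FPKM (log2 change -1.72, SE 0.08, adjusted p = 2.93e-05), and a proline-rich protein (Solyc10g054900.1.1) rose from 1.16, 2.79 and 2.31 to 30.03, 46.6 and 40.9 FPKM (log2 change 3.72, SE 0.24, adjusted p = 9.1e-05). Fasciclin-like arabinogalactan protein 4 (Solyc07g053540.1.1), a wall glycoprotein, stood at 50.1, 8.44 and 41.04 FPKM in wild type and 4.35, 0.335 and 0.679 FPKM in A4 (log2 change -3.57, SE 0.75, adjusted p = 0.00945), again with wild-type replicate 2 and A4 replicate 1 nearest the other group.

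**Figure D5:**
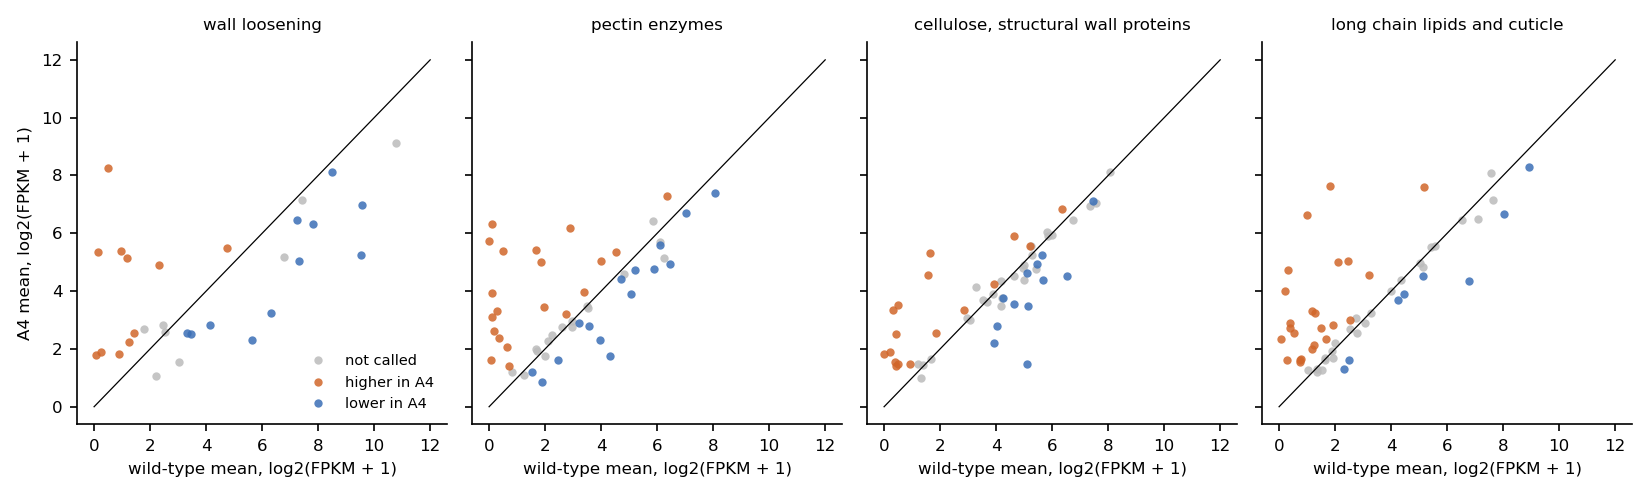
Mean of 3 A4 libraries against mean of 3 wild-type libraries, as log2(summed FPKM + 1), for each protein of 4 lists; orange points are called higher in A4, blue lower and grey not called, and the line marks equality. Proteins near 0 in wild type pass the filter on mean FPKM only through A4, so points at the left edge lie above the line by that choice; in wall loosening 11 proteins rise and 11 fall.

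Proteins of surface lipids rose more often than they fell. Of 56 very long chain lipid and cuticle proteins, 24 rose (42.9%) and 8 fell (14.3%), 16 of the rises and 2 of the falls being at least 2-fold. A 3-ketoacyl-CoA synthase (Solyc02g085870.2.1), which lengthens fatty acids for wax, stood at 3.12, 1.33 and 3.08 FPKM in wild type and 159, 199 and 242 FPKM in A4 (log2 change 5.87, SE 0.25, adjusted p = 1.95e-05), and at 23.6 ± 10.7 FPKM in A9. Of 18 lipid-transfer proteins, small secreted carriers of lipid, 10 rose, 2 fell and 6 did not pass. Solyc10g075110.1.1 rose from 0.542, 1.18 and 1.22 to 90.1, 93.1 and 112 FPKM (log2 change 5.66, SE 0.16, adjusted p = 3.91e-06), and Solyc10g075050.1.1 from 0.237, 0.226 and 0.244 to 24.2, 22.4 and 29.9 FPKM (log2 change 4.41, SE 0.12, adjusted p = 2.91e-06). Solyc06g069070.1.1 rose from 2.69, 3.32 and 3.72 to 31.04, 28.6 and 32.8 FPKM (log2 change 2.91, SE 0.11, adjusted p = 1.13e-05). The most abundant lipid-transfer protein, Solyc08g079250.2.1, fell from 456, 513 and 474 to 294, 325 and 317 FPKM (log2 change -0.62, SE 0.08, adjusted p = 0.0015). Of the 10 proteins named 3-ketoacyl-CoA synthase 2 rose and 4 fell, among the latter Solyc03g005320.2.1, chosen after its values were seen, from 112, 107 and 105 to 22.9, 16.8 and 18.6 FPKM (log2 change -2.43, SE 0.11, adjusted p = 2.75e-05).

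Photosystem and light-harvesting proteins, in a list that also holds Rubisco and its activase, mark green tissue and fell more often than they rose. Of 56, 24 fell (42.9%), 5 rose (8.93%) and 27 did not pass, with a median log2 change of -0.33 and totals of 2330 to 2910 FPKM in wild type and 1427 to 2072 FPKM in A4. After quantile normalization 23 fell and 4 rose. Rubisco activase (Solyc03g117850.2.1), which keeps the carbon-fixing enzyme active, fell from 110.3, 94.97 and 112 to 48.1, 44.6 and 44.7 FPKM (log2 change -1.19, SE 0.09, adjusted p = 0.000148). A chlorophyll a-b binding protein 3C-like (Solyc03g005780.1.1), of the antenna, fell from 259, 272 and 276 to 90.8, 138 and 83.8 FPKM (log2 change -1.39, SE 0.18, adjusted p = 0.00135), and A9 stood at 95.6 ± 17.4 FPKM. The most abundant member, the small chain of Rubisco (Solyc02g085950.2.1), stood at 449.9, 646 and 501 FPKM in wild type and 265, 447 and 222 FPKM in A4 (log2 change -0.82, SE 0.26, adjusted p = 0.0452). After quantile normalization it was not called (adjusted p = 0.0896), nor with its highest locus alone (0.0556) or the length-weighted mean (0.0505). The call was also lost without any single library other than A4 replicate 2 (adjusted p of 0.0619, 0.124 and 0.098 without wild-type replicates 1, 2 and 3, and 0.103 and 0.133 without A4 replicates 1 and 3). In the terpenoid and carotenoid list 13 of 38 fell (34.2%) and 9 rose (23.7%), against 20.6% and 19.0% of all proteins. 1-deoxy-D-xylulose 5-phosphate synthase 1 (Solyc01g067890.2.1), the plastid entry enzyme, fell from 26.9, 26.6 and 24.7 to 10.02, 12.8 and 10.03 FPKM (log2 change -1.19, SE 0.11, adjusted p = 0.000313), and carotenoid cleavage dioxygenase 4A (Solyc08g075480.2.1) from 17.3, 20.03 and 14.6 to 3.92, 4.62 and 4.11 FPKM (log2 change -1.80, SE 0.12, adjusted p = 0.000111). A 9-cis-epoxycarotenoid dioxygenase (Solyc07g056570.1.1), of the family that starts abscisic acid synthesis, rose from 1.34, 2.01 and 0.996 to 6.58, 9.41 and 11.5 FPKM (log2 change 2.04, SE 0.22, adjusted p = 0.000612).

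Among transport proteins, a few abundant members set the totals. Of 49 ABC transporters, 17 rose (34.7%) and 12 fell, but their total was 4905 to 5755 FPKM in wild type and 2716 to 3094 FPKM in A4. Most of it was ABC transporter G family member 11 (Solyc01g105450.2.1), of a subfamily that exports lipids and, in petunia, scent compounds. It fell from 3450.2, 3904 and 4264 to 1390.2, 1682 and 1277 FPKM (log2 change -1.42, SE 0.14, adjusted p = 0.000401), with A9 at 1935 ± 147 FPKM. ATP-binding cassette protein Solyc11g069090.1.1 rose from 98.5, 116 and 114 to 189, 210.2 and 235 FPKM (log2 change 0.94, SE 0.11, adjusted p = 0.000812). Of 23 aquaporins, water channels of the plasma membrane and vacuole, 6 rose (26.1%) and 7 fell (30.4%), against 19.0% and 20.6% of all proteins. Aquaporin Solyc10g084120.1.1 rose from 4.18, 10.05 and 2.89 to 113, 147 and 147 FPKM (log2 change 4.48, SE 0.36, adjusted p = 0.000203) and aquaporin 2 (Solyc09g007760.2.1) from 3.91, 8.17 and 2.18 to 73.9, 89.1 and 100.1 FPKM (log2 change 4.07, SE 0.35, adjusted p = 0.000285). The abundant aquaporin-like protein Solyc01g111660.2.1 fell from 1004, 1475 and 1021 to 245, 388 and 226 FPKM (log2 change -2.04, SE 0.24, adjusted p = 0.000875). Amino acid transporters rose in 7 and fell in 7 of 28 (25% each, against 19.0% and 20.6% of all proteins). Permease Solyc05g008760.2.1 fell from 15.7, 15.6 and 14.2 to 4.31, 3.57 and 4.38 FPKM (log2 change -1.67, SE 0.09, adjusted p = 5.07e-05). Transporter Solyc06g050800.2.1 rose from 0.779, 0.666 and 1.33 to 15.4, 22.6 and 24.6 FPKM (log2 change 3.50, SE 0.20, adjusted p = 5.31e-05).

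Carbon supply showed no common direction. Among glycolysis and pentose phosphate proteins 18 of 70 rose (25.7%) and 24 fell (34.3%). Among sugar and starch proteins 10 of 36 rose (27.8%) and 11 fell (30.6%). Of all proteins 19.0% rose and 20.6% fell. Glyceraldehyde 3-phosphate dehydrogenase (Solyc05g014470.2.1) rose from 382, 507 and 430.3 to 969.9, 938 and 1069 FPKM (log2 change 1.18, SE 0.12, adjusted p = 0.000515). Sucrose phosphate synthase (Solyc09g092130.2.1), which makes sucrose, rose from 2.88, 4.36 and 3.99 to 28.4, 22.99 and 25.4 FPKM (log2 change 2.50, SE 0.14, adjusted p = 5.03e-05), and a fructokinase-like protein (Solyc06g073190.2.1) fell from 160.4, 154 and 160.0 to 77.7, 87.7 and 84.5 FPKM (log2 change -0.92, SE 0.07, adjusted p = 0.000203). Mitochondrial respiration had the smallest share called of the 41 lists, with 7 of 63 proteins up (11.1%) and 3 down (4.76%). Alternative oxidase (Solyc01g105220.2.1), which bypasses part of the respiratory chain, rose from 1.17, 1.35 and 1.22 to 3.87, 3.68 and 4.79 FPKM (log2 change 1.18, SE 0.11, adjusted p = 0.000355).

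Among regulators the circadian clock and CONSTANS-like list held 16 falls (40%) and 7 rises among 40 proteins. A late elongated hypocotyl protein (Solyc10g005080.2.1), a morning factor of the clock, rose from 0.854, 0.812 and 0.614 to 9.27, 12.7 and 12.5 FPKM (log2 change 2.82, SE 0.13, adjusted p = 2.77e-05), while A9 stood at 0.863 ± 0.296 FPKM. CONSTANS-like protein Solyc07g006630.2.1 fell from 372, 515 and 480.1 to 142, 131 and 126 FPKM (log2 change -1.76, SE 0.13, adjusted p = 0.000153). GIGANTEA 2 (Solyc12g056650.1.1), an evening factor, stood at 303, 292 and 308 FPKM in wild type and 239.9, 282 and 261 FPKM in A4 (adjusted p = 0.0833). Of 68 MYB factors, a family with regulators of scent and pigment, 14 rose (20.6%) and 19 fell (27.9%), against 19.0% and 20.6% of all proteins. The most abundant, Solyc08g079270.2.1, stood at 2360.4, 2477 and 2272 and 1735, 1837 and 1786 FPKM (log2 change -0.41, SE 0.08, adjusted p = 0.00811; adjusted p = 0.694 after quantile normalization). MYB factor Solyc10g086250.1.1 rose from 1.78, 2.02 and 1.65 to 14.1, 15.7 and 22.9 FPKM (log2 change 2.70, SE 0.17, adjusted p = 8.48e-05). The MADS-box factors, which set floral organ identity, fell in 8 and rose in 3 of 23. The 2 most abundant did not pass the test, with Solyc08g067230.2.1 at 908 to 1095 FPKM in wild type and 842 to 945 FPKM in A4, and Solyc04g081000.2.1 at 432 to 447 and 439 to 458 FPKM. The tomato names used here do not say which of them is of the petal-identity type. These proteins were therefore not used to check the petal label. WRKY transcription factor 6 (Solyc09g015770.2.1), of a family active in stress and senescence, fell from 814, 519 and 759 to 429, 207 and 225 FPKM (log2 change -1.33, SE 0.30, adjusted p = 0.0124), a call lost without A4 replicate 3 (adjusted p = 0.0512).

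Hormone lists moved in both directions. Of 94 auxin proteins, 28 rose (29.8%) and 19 fell (20.2%), and 16 rises and 6 falls were at least 2-fold. Of 25 auxin response factors, which bind auxin-responsive promoters, 11 rose and 4 fell. Among the rises were factor 8 (Solyc02g037530.2.1) from 2.07, 2.07 and 1.99 to 10.3, 11.8 and 16.8 FPKM (log2 change 2.17, SE 0.16, adjusted p = 0.000167) and factor 19 (Solyc07g016180.2.1) from 5.54, 6.12 and 5.95 to 14.8, 15.8 and 19.96 FPKM (log2 change 1.37, SE 0.12, adjusted p = 0.000273). The efflux carriers, which move auxin out of cells, parted: Solyc10g074790.1.1 rose from 42.6, 40.5 and 42.5 to 87.9, 100.1 and 114 FPKM (log2 change 1.24, SE 0.10, adjusted p = 0.000245) and Solyc04g082830.2.1 fell from 62.5, 58.4 and 58.4 to 24.5, 23.8 and 23.4 FPKM (log2 change -1.29, SE 0.07, adjusted p = 3.65e-05). The abundant GH3-like protein Solyc10g008520.2.1, of the family that joins auxin and other acids to amino acids, fell from 2299, 2369 and 2517 to 1366, 1494 and 1294 FPKM (log2 change -0.79, SE 0.09, adjusted p = 0.000873), and A9 stood at 1225 ± 104 FPKM. Of 79 ethylene proteins, 16 rose (20.3%) and 20 fell (25.3%), near the 19.0% and 20.6% of all proteins. Ethylene responsive factor 1a (Solyc05g052030.1.1) fell from 47.4, 31.6 and 43.02 to 1.18, 1.39 and 0.603 FPKM (log2 change -4.34, SE 0.20, adjusted p = 2.57e-05). ACC oxidase (Solyc07g026650.2.1), which makes ethylene, fell from 12.1, 11.6 and 8.59 to 0.994, 1.23 and 1.18 FPKM (log2 change -2.45, SE 0.14, adjusted p = 4.67e-05), whereas another ACC oxidase chosen after its values were seen, Solyc07g049530.2.1, rose from 68.02, 101 and 132 to 178, 169 and 193 FPKM (log2 change 0.88, SE 0.22, adjusted p = 0.0182), a call lost without A4 replicate 3 (adjusted p = 0.0658). In the jasmonate list, 5 of 12 rose (41.7%) and 4 fell (33.3%), against 19.0% and 20.6% of all proteins. Allene oxide synthase (Solyc10g007960.1.1), which commits lipid peroxides to jasmonate, rose from 0.545, 0.375 and 0.314 to 23.1, 27.7 and 21.1 FPKM (log2 change 4.14, SE 0.12, adjusted p = 4.03e-06), and methyl jasmonate esterase (Solyc03g070380.2.1) fell from 75.95, 91.9 and 90.4 to 16.02, 15.8 and 22.1 FPKM (log2 change -2.21, SE 0.14, adjusted p = 9.51e-05).

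Defence proteins rose more often than they fell. Of 63, 25 rose (39.7%) and 10 fell (15.9%), but the list totals overlapped, with 4008 to 4796 FPKM in wild type and 4129 to 4356 FPKM in A4. PR-1 (Solyc07g006700.1.1), a secreted pathogenesis-related protein, rose from 0.112, 0.673 and 0.415 to 20.4, 30.9 and 38.2 FPKM (log2 change 4.44, SE 0.24, adjusted p = 4.6e-05). A Kunitz-type protease inhibitor (Solyc03g019690.1.1) rose from 0.747, 0.534 and 0.760 to 18.3, 15.01 and 22.8 FPKM (log2 change 3.54, SE 0.15, adjusted p = 1.95e-05). The abundant defensin Solyc11g028040.1.1, an antimicrobial peptide, stood at 2061, 2132 and 2871 FPKM in wild type and 2199.7, 2691 and 2636 FPKM in A4 (adjusted p = 0.63), and a chitinase-like protein (Solyc09g098540.2.1) fell from 363, 332 and 331 to 195, 122.9 and 145 FPKM (log2 change -1.17, SE 0.16, adjusted p = 0.00179). The virus-matched loci named above were higher in the same libraries, and their part in these rises was not tested. Of 163 heat shock proteins and chaperones, 33 rose (20.2%, near the 19.0% of all proteins) and 17 fell (10.4%). Their total was 6832 to 7432 FPKM in wild type and 8311 to 9723 FPKM in A4. The abundant DNAJ chaperone Solyc11g006460.1.1, a partner of the folding machinery, rose from 694, 799 and 669 to 957, 1090.4 and 1374 FPKM (log2 change 0.65, SE 0.15, adjusted p = 0.0125). Heat shock protein 70-3 (Solyc10g086410.2.1), a folding chaperone chosen after its values were seen, rose from 75.95, 123.3 and 90.1 to 280.2, 321 and 401 FPKM (log2 change 1.79, SE 0.20, adjusted p = 0.000732). Of 8 proteins named class I heat shock protein, 3 fell and 2 rose. Solyc12g042830.1.1 fell from 12.6, 10.02 and 15.7 to 0.977, 0.213 and 0.524 FPKM (log2 change -3.14, SE 0.22, adjusted p = 0.000114) and Solyc02g080410.2.1 from 32.4, 30.01 and 26.4 to 10.9, 11.2 and 11.8 FPKM (log2 change -1.31, SE 0.09, adjusted p = 0.000121). Glutathione and thioredoxin proteins stayed near the background, with 24 of 120 up (20%) and 26 down (21.7%). Among peroxidases and catalases 10 of 29 rose (34.5%) and 4 fell (13.8%), against 19.0% and 20.6% of all proteins. Peroxidase Solyc03g006700.2.1 fell from 192, 159 and 192 to 59.2, 58.7 and 44.4 FPKM (log2 change -1.73, SE 0.14, adjusted p = 0.00019).

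In the large enzyme families falls were more frequent among cytochrome P450 proteins, 31 of 83 (37.3%) against 20 rises (24.1%). Of all proteins 20.6% fell and 19.0% rose. The median log2 change of the P450 list was 0.04, and its totals overlapped between the groups. P450 protein Solyc04g078290.2.1 stood at 8.31, 9.79 and 8.58 FPKM in wild type and was listed at 0 in all A4 and A9 libraries (adjusted p = 3.91e-06 for A4). The most abundant P450, Solyc05g011970.2.1, rose from 1195, 961 and 987 to 1602, 1656 and 1488 FPKM (log2 change 0.60, SE 0.11, adjusted p = 0.00537). Glycosyltransferases rose in 11 (22.4%) and fell in 14 (28.6%) of 49, against 19.0% and 20.6% of all proteins. Their totals were 3856 to 4319 FPKM in wild type and 2156 to 3093 FPKM in A4. UDP-glucose glucosyltransferase Solyc08g006350.2.1 fell from 1403, 1337 and 1418 to 705, 506 and 551 FPKM (log2 change -1.25, SE 0.13, adjusted p = 0.000552), and A9 stood at 284 ± 105 FPKM. Of 77 proteases, 18 rose (23.4%) and 17 fell (22.1%), near the 19.0% and 20.6% of all proteins. A cathepsin B-like proteinase (Solyc02g076710.2.1), a vacuolar cysteine protease, fell from 199.6, 197 and 194 to 26.1, 26.7 and 28.5 FPKM (log2 change -2.82, SE 0.07, adjusted p = 2.1e-06), and an aspartic proteinase nepenthesin-2 (Solyc06g074000.1.1) rose from 8.99, 7.14 and 9.07 to 54.98, 60.6 and 83.2 FPKM (log2 change 2.82, SE 0.17, adjusted p = 5.96e-05).

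Of 89 cytosolic ribosomal proteins, 23 rose (25.8%) and 1 fell (1.12%), and their total was 9141 to 10315 FPKM in wild type and 10722 to 12070 FPKM in A4. After quantile normalization 37 rose and 1 fell. The 60S acidic protein P0 (Solyc05g054580.2.1), of the ribosomal stalk, rose from 129, 140.4 and 145 to 372, 406 and 496 FPKM (log2 change 1.61, SE 0.12, adjusted p = 0.000152). The 40S protein S24 (Solyc01g097870.2.1) rose from 49.96, 51.5 and 49.8 to 130.5, 131 and 166 FPKM (log2 change 1.47, SE 0.11, adjusted p = 0.000139). Among plastid and mitochondrial ribosomal proteins 33 of 99 fell (33.3%) and 20 rose, although their total was higher in A4, 3504 to 3976 FPKM against 2952 to 3180 FPKM. The 50S protein L5 (Solyc09g007560.2.1) fell from 31.3, 27.3 and 28.4 to 15.2, 16.4 and 16.5 FPKM (log2 change -0.81, SE 0.08, adjusted p = 0.00045), and the 30S protein S11 (Solyc10g083280.1.1) rose from 202, 234 and 213 to 399.6, 386 and 472 FPKM (log2 change 0.95, SE 0.10, adjusted p = 0.000681). Histones changed little, with 2 of 24 up and 3 down. Ubiquitin and F-box proteins stayed near the background, 61 of 360 up (16.9%) and 67 down (18.6%). A ubiquitin carboxyl-terminal hydrolase (Solyc07g005530.2.1), which frees ubiquitin from proteins, rose from 10.5, 11.3 and 11.2 to 93.9, 110.2 and 128 FPKM (log2 change 3.21, SE 0.12, adjusted p = 1.02e-05).

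Proteins of mobile elements had the largest share of rises among the 41 lists. Of 112, 66 rose (58.9%, against 19.0% of all proteins), 9 fell and 37 did not pass, with a median log2 change of 0.76 and 49 rises of at least 2-fold. Their total was 1840 to 1972 FPKM in wild type and 4497 to 4895 FPKM in A4, and 3847 ± 254 FPKM in A9. After quantile normalization 65 rose and 10 fell. Gag-Pol and Pol polyproteins are the products that copy and insert retrotransposons. Pol polyprotein Solyc11g017260.1.1 rose from 23.4, 16.5 and 21.6 to 205, 182 and 192 FPKM over 22 loci (log2 change 3.19, SE 0.13, adjusted p = 1.59e-05). Pol polyprotein Solyc11g050910.1.1 rose from 32.3, 33.4 and 34.1 to 189, 207 and 226 FPKM over 23 loci (log2 change 2.60, SE 0.08, adjusted p = 6.62e-06). Ty1-A Gag-Pol polyprotein Solyc00g075040.1.1 sums 144 loci, the most of any protein, and rose from 257, 227 and 254 to 955, 847 and 828 FPKM (log2 change 1.83, SE 0.09, adjusted p = 3.31e-05). With its highest locus alone the log2 change was 1.67, and the call was lost (adjusted p = 0.0777). The Pol polyprotein of an R2-type element, Solyc00g012310.1.1, rose from 268, 235 and 269 to 376, 369 and 372 FPKM (log2 change 0.54, SE 0.08, adjusted p = 0.0025), but its highest locus alone fell (log2 change -0.40, adjusted p = 0.012). Many elements share 1 tomato name here, so the sums do not count elements.

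Markers of other flower tissue were measured beside these lists. Of 18 pollen and anther proteins, 2 rose (11.1%) and 6 fell (33.3%), against 19.0% and 20.6% of all proteins, and their total was 372 to 475 FPKM in wild type and 282.9 to 330.9 FPKM in A4. The pollen allergen Phl p 11 protein (Solyc04g054810.2.1) stood at 115, 148 and 128 and 91.04, 100.1 and 102 FPKM (log2 change -0.41, SE 0.11, adjusted p = 0.021), and was not called without A4 replicate 1 (adjusted p = 0.0534) or wild-type replicate 3 (0.0623). The 2 that rose were a pollen Ole e 1 allergen and extensin protein (Solyc02g089250.2.1), which rose from 0.147, 0.348 and 0.221 to 7.17, 9.39 and 10.6 FPKM (log2 change 3.01, SE 0.15, adjusted p = 3e-05), and a pollen-specific kinase partner protein (Solyc12g044270.1.1), which rose from 0.377, 0.264 and 0.348 to 2.62, 3.04 and 2.58 FPKM (log2 change 1.49, SE 0.10, adjusted p = 9.74e-05). Male sterility 5 protein Solyc06g007970.2.1 fell from 29.7, 38.1 and 28.7 to 12.4, 15.4 and 12.7 FPKM (log2 change -1.19, SE 0.13, adjusted p = 0.000732). Of 11 pistil and seed proteins 5 rose (45.5%) and 1 fell (9.09%), against 19.0% and 20.6% of all proteins. Their totals were 667 to 730 FPKM in wild type and 556 to 695 FPKM in A4. The largest part of each total was the 1 that fell, late embryogenesis abundant protein 5 (Solyc09g075210.2.1). It stood at 535, 488 and 584 FPKM in wild type and 437, 279 and 380 FPKM in A4 (log2 change -0.57, SE 0.17, adjusted p = 0.0329). After quantile normalization 6 of the 11 rose and 0 fell, so that fall was no longer called. The next most abundant, a pistil extensin-like protein (Solyc02g078100.2.1), rose from 78.8, 96.4 and 67.5 to 109, 125 and 109 FPKM (adjusted p = 0.0241). The strongest rise, of a protein of the protease inhibitor, seed storage and lipid transfer family (Solyc07g065110.1.1), was from 0.158, 0.225 and 0.0811 to 11.6, 11.6 and 22.4 FPKM (log2 change 3.75, SE 0.24, adjusted p = 9.1e-05). The other rises were of late embryogenesis abundant proteins and of another protein of that family. The legumin and vicilin proteins and the other pistil extensin protein did not pass. The part of other tissue in the results was not tested.

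Loci without a tomato match carried many of the strongest rises. Of 6153 such loci, 12.2% rose at least 2-fold and 3.64% fell at least 2-fold, against 4.16% and 2.51% of the 47119 matched loci. From a mean under 0.1 FPKM in wild type to at least 5 FPKM in A4 went 128 loci, of which 71 had no match, and 23 loci, 10 of them without a match, went the other way. Such loci passed the filter on mean FPKM only through the group where they were higher, so their direction followed from that choice. Of the 53272 loci tested, 6153 had no match. Over all 53272 loci, 8083 rose (15.2%) and 8560 fell (16.1%), 5.09% and 2.64% by at least 2-fold. Without wild-type replicate 3, 6129 loci rose and 5206 fell. In 282 of the 9606 proteins with several loci, some loci rose and others fell. Their sum rose in 60, fell in 76 and was not called in 146. In all, 1022 proteins held a called locus while their sum was not called.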

How the data were processed

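RNA from corollas was measured in 3 wild-type and 3 A4 libraries, grouped by sample title. The authors deposited FPKM for each locus and library. Per the submitters' processing notes Bowtie2 2.2.6 and FastQC 0.11.2 were used; the assembler, the quantification tool and any scaling between libraries are not stated there. A deposited BLAST table gave each locus its best tomato protein, the percent identity and, as scores, the e-value (at most 0.001) and bit score, per the file headers.

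FPKM are not counts, so no count model was used. Loci with a mean under 1 FPKM and loci matched to a viral genome polyprotein were left out, FPKM were summed per tomato protein, and log2(FPKM + 1) was tested with limma 3.58.1 (R 4.3.3, variance trend, Benjamini-Hochberg adjustment over all 12894 proteins, and over all 53272 loci in a fit of single loci). A log2 change on this scale understates changes of low proteins. A protein rose or fell when its adjusted p was under 0.05. Depth was estimated from the steps between low FPKM values. Summing merges petunia genes with the same best match, and loci of 1 protein may share reads.

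The proteins, the 41 lists of name words and the tests were chosen with earlier results of these data known, and some list words were corrected after protein names, not values, had been seen. List counts and medians are descriptions. Named proteins are the 20 largest rises and falls that did not overlap between groups, passed the test, reached 5 FPKM and had an e-value of at most 1e-10, and in each list the 4 lowest p-values and 2 most abundant members, plus all dehydratases. Not all are printed, and others are marked as chosen after their values were seen. The fit was tested on simulated data. Alternatives covered the pseudocount, filter, scaling, summing, e-value, all 9 libraries, a replicate block and leaving out each library. Tables were handled in Python 3.11.15 with pandas 2.3.3.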

Additional observations from a re-analysis of the deposited data

Results flagged for a closer look

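Loci matched to a viral genome polyprotein, which no comparison used, held signal in A4 above the level in wild type. XLOC_091087 (8951 bases) averaged 92.3 FPKM in A4, with 31.0, 53.6 and 192.3 FPKM in its libraries, against at most 0.0375 FPKM in wild type. XLOC_004860 (464 bases) averaged 9.96 FPKM, XLOC_075001 (3962 bases) 1.49 FPKM and XLOC_068410 (964 bases) 0.571 FPKM in A4. The first and last of these 3 were listed at 0 in all wild-type libraries. A4 replicate 3 was the highest library for all 4 loci. What these loci stand for in the plants was not tested.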

How the results depend on the processing

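Of 124 of the called proteins named in the text, 115 remained called in the same direction after quantile normalization, 115 without A4 replicate 3, and 120 to 124 under the other alternatives that gave all of them a value. The mean of at least 5 FPKM, with fewer tested, gave 3069 called proteins (1232 higher, 1837 lower) and 7715 called loci (3018 higher, 4697 lower). With no filter 3625 proteins were higher and 2909 lower, as were 13935 and 10384 loci. Which direction held more calls therefore changed with the filter. Leaving out 1 library gave 3626 to 4728 called proteins (1894 to 2345 higher, 1709 to 2383 lower) and 11335 to 14950 called loci (6129 to 7571 higher, 5206 to 7379 lower), with the fewest calls without wild-type replicate 3 in every count except proteins higher, where it was A4 replicate 3. The dehydratase difference then ranged from -1537 to -974 FPKM. After quantile normalization 14 list totals lay below wild type and 10 above. The ratio of A4 to wild type then passed 1 for the methyl cycle (1.06), MADS-box factors (1.02), proteases (1.02) and ubiquitin and F-box proteins (1.08), and with the highest locus or the length-weighted mean for the clock list (1.12 and 1.30). The cause was not tested. The log2 change turned sign for Solyc00g012310.1.1 with its highest locus (-0.40), for Solyc02g080620.2.1 with no filter (0.17) and, after quantile normalization, for Solyc08g067230.2.1 (0.19), Solyc09g008280.1.1 (0.10) and Solyc06g050630.2.1 (-0.21); of these only the first was called. Leaving out 1 library moved it from -0.062 to 0.154 for Solyc06g050630.2.1 and from -0.34 to 0.14 for Solyc10g007110.2.1, neither called. Same-numbered libraries correlated at 0.23, 0.19 and -0.13 in their deviations, and libraries of unlike number at -0.37 to 0.23. With 3 libraries per group these values cannot tell whether the numbers pair the libraries. A replicate block gave 5092 called proteins, and 2503 were higher. Leaving out loci under 300 bases, an alternative chosen after seeing the data, gave 5188 called proteins. The salicylic acid methyltransferase missed the threshold in the fit of all 9 libraries (adjusted p = 0.0674).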
